A study of Mus musculus with 6 samples.

Results

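The small heat shock proteins studied here are Hspb1, Hspb2, Hspb6, Hspb7, Hspb8 and Cryab, and Bag3 is the cochaperone that works with several of them. Members were all probe sets, the groups of short probes that read out 1 transcript on the array, whose symbol in the platform annotation is exactly that of 1 of these 7 genes. This gave 14 probe sets of 45037 tested, and 7 genes of 18193. RNA came from cultured mesenchymal stem cells of the mouse, which are able to form fat, bone or cartilage, in medium with rosiglitazone at 1 µM, insulin at 5 µg/ml, IBMX at 100 µM and dexamethasone at 1 µM, a mix that drives fat cell formation. It had been added again 48 h before irradiation, and both groups received it. The irradiated group (n = 3) received 12 h of broadband terahertz radiation in pulses, near 10 THz, at 1 kHz and 1 mW/cm2 with a pulse width of 35 fs. The control group (n = 3) stood beside it without irradiation, at the same 26 to 27 °C. Each of 3 independent experiments gave 1 array of each group, and RNA was taken right after the exposure.

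Small heat shock proteins are compact chaperones built around an alpha-crystallin domain. They assemble into large oligomers, bind unfolding proteins without using ATP and hold them until the Hsp70 machinery can refold them. BAG3 links them to Hsp70: it binds HSPB8 and other small heat shock proteins with one part of the protein and Hsp70 with its BAG domain, and it directs damaged clients such as filamin to autophagy. The heat shock transcription factor HSF1 induces many genes of this group. Hspb2, Hspb6 and Hspb7 are best known from heart and skeletal muscle, while Hspb1, Hspb8 and Cryab are made in many cell types.

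All 8 member probe sets that were bright enough to be called expressed read lower on average in irradiated cells, but none passed the test. Their log2 differences, irradiated minus control, lay between -0.29 and -0.13 with a median of -0.16, against a median of 0 over all expressed probe sets. Probe sets were called expressed where the mean of either group reached 6 on the log2 scale, and these 8 probe sets belong to 4 genes (Hspb1, Hspb8, Cryab and Bag3), so they are not 8 independent readings. Over all probe sets 49.8% of the expressed ones read lower. A second pattern was wider than the first: Cryab was about 2-fold higher on both arrays of experiment 1 than on the other arrays, and Hspb1 and Hspb8 shared this in part, while Bag3 did not.

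RefSeq promoter windows (GRCm38.p6, 250 bases before to 50 after the annotated start) were at hand for 5 of the 7 genes, Hspb1, Hspb6, Hspb7, Hspb8 and Bag3, with 2 start sites for Hspb6. Promoters of Hspb2 and Cryab are not shown. They were searched on both strands for the heat shock element, the site HSF1 binds, which is made of inverted GAA units. The pattern with 3 alternating units in a row, each 2 bases from the next, was in none of the 6 member windows and in 0.603% of 32851 windows of all genes. Units beyond the end of a window could not be seen. The shorter pattern with 2 units, GAANNTTC or TTCNNGAA, was in windows of 4 of the 5 genes, against 15.1% of all windows. In each of these 4 genes 1 match had the same 8 letters, GAAGTTTC, which 1.21% of all windows hold on either strand. That 8-letter search was chosen after the matches were seen.

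A stretch of 30 bases that holds each match is shown because these 8 letters recur in 4 of the 5 members searched. The brightest probe set read lower on average in irradiated cells for all 7 members. Hspb7, searched but without a match, differed by -0.03 with pairs of both signs. Whether the direction goes with a match thus cannot be judged from these genes. Capitals mark the match, each line runs 5′ to 3′ on the gene's strand, and the Hspb6 line belongs to the downstream start site.
Hspb1: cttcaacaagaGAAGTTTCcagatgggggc
Hspb6: aagtaattattGAAGTTTCtaaataaggaa
Hspb8: agaagccaggaGAAGTTTCtaggctcgcga
Bag3: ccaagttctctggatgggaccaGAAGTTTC

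The positions are chr5:135887791-135887820 (plus strand) for Hspb1, chr7:30553170-30553199 (plus) for Hspb6, chr5:116422844-116422873 (minus) for Hspb8 and chr7:128523603-128523632 (plus) for Bag3. The match began 117 bases before the start in Hspb1 and 120 bases before it in Hspb6. In Hspb8 and Bag3 it lay at base 3 and base 43 of the transcript. Hspb1 had a further 2-unit match 97 bases before its start. Its upstream window, chr5:135887669-135887918 on the plus strand, is shown because it held both, again in capitals.
Hspb1 upstream: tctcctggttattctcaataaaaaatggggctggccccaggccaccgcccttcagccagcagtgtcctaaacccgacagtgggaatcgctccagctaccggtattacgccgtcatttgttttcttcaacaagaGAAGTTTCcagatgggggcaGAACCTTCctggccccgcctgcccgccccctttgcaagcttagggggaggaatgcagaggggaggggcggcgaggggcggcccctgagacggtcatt

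A match says that these letters are there, not that a factor binds them.

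Hspb1, the chaperone called Hsp25 in mice, is induced by heat and protects actin filaments. Its brighter probe set (1422943_a_at) read 9.34, 8.98 and 9.00 in the controls of experiments 1, 2 and 3, and 9.31, 8.71 and 8.81 in the irradiated cultures. Irradiated cultures were lower by 0.03, 0.27 and 0.19 within the pairs, and the groups overlapped because both arrays of experiment 1 were high. The log2 difference was -0.16 ± 0.10 (SE; limma adjusted p = 0.706), with a 95% interval of -0.41 to 0.08, and lay between -0.23 and -0.11 with each experiment left out in turn. The second probe set (1425964_x_at), whose suffix marks probes that may bind other transcripts, read 8.61, 8.10 and 8.05 in controls and 8.67, 7.78 and 7.86 in irradiated cultures. It differed by -0.15 ± 0.11 (SE; limma adjusted p = 0.754), with experiment 1 the other way at 0.06. This difference was -0.255 without experiment 1 and -0.065 without experiment 2.

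Hspb8 encodes HSP22, the small heat shock protein that forms a stable complex with BAG3. Its brightest probe set (1417013_at) read 8.09, 7.70 and 7.67 in controls and 8.11, 7.43 and 7.45 in irradiated cultures. Experiments 2 and 3 were lower by 0.27 and 0.22, and experiment 1 was level at 0.02. The log2 difference was -0.16 ± 0.11 (SE; limma adjusted p = 0.725). The other probe sets of the gene gave -0.21 ± 0.12 (SE) for 1417014_at and -0.26 ± 0.11 (SE) for 1456434_x_at, with limma adjusted p of 0.698 and 0.623. In each of the 3 probe sets experiment 1 gave the smallest difference, 0.02, 0.08 and -0.06. Without experiment 1 the means were -0.25, -0.35 and -0.36, and without experiment 3 they were -0.13, -0.15 and -0.16, so the size of the Hspb8 difference depended on which experiments entered.

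Cryab encodes alpha-B-crystallin, a lens protein that also guards desmin and actin filaments in other tissues. Its brightest probe set (1434369_a_at) read 9.86, 8.90 and 8.67 in controls and 9.71, 8.70 and 8.64 in irradiated cultures. All 3 pairs were lower, by 0.15, 0.20 and 0.03, but this was small beside the range of 1.19 among the controls. The log2 difference was -0.13 ± 0.10 (SE; limma adjusted p = 0.761). A second probe set (1416455_a_at) read 8.31, 7.14 and 6.99 in controls and 7.91, 6.74 and 6.91 in irradiated cultures. It was lower by 0.40, 0.40 and 0.08 in the pairs, with a mean of -0.29 ± 0.11 (SE; limma adjusted p = 0.594). Both bright Cryab probe sets thus read lower in all 3 pairs, and the second differed by more than the first. The third Cryab probe set (1435837_at) was near background at 2.99 in controls and 3.07 in irradiated cultures, and bears on neither.

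Bag3 was the expressed member with the least spread over the arrays. Its single probe set (1422452_at) read 10.61, 10.53 and 10.66 in controls and 10.54, 10.41 and 10.36 in irradiated cultures. The irradiated arrays were lower in all 3 pairs, by 0.07, 0.12 and 0.30, and the groups overlapped only through irradiated experiment 1, which read 0.01 above the lowest control. Controls had a mean of 10.60 ± 0.07 (SD, n = 3). Irradiated cultures had a mean of 10.44 ± 0.09 (SD, n = 3). The log2 difference was -0.16 ± 0.10 (SE; limma adjusted p = 0.705), or 1.12-fold lower, with a 95% interval of -0.40 to 0.08. Without experiment 3 the difference was -0.095, smaller by more than 1.5 times.

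**Figure D1:**
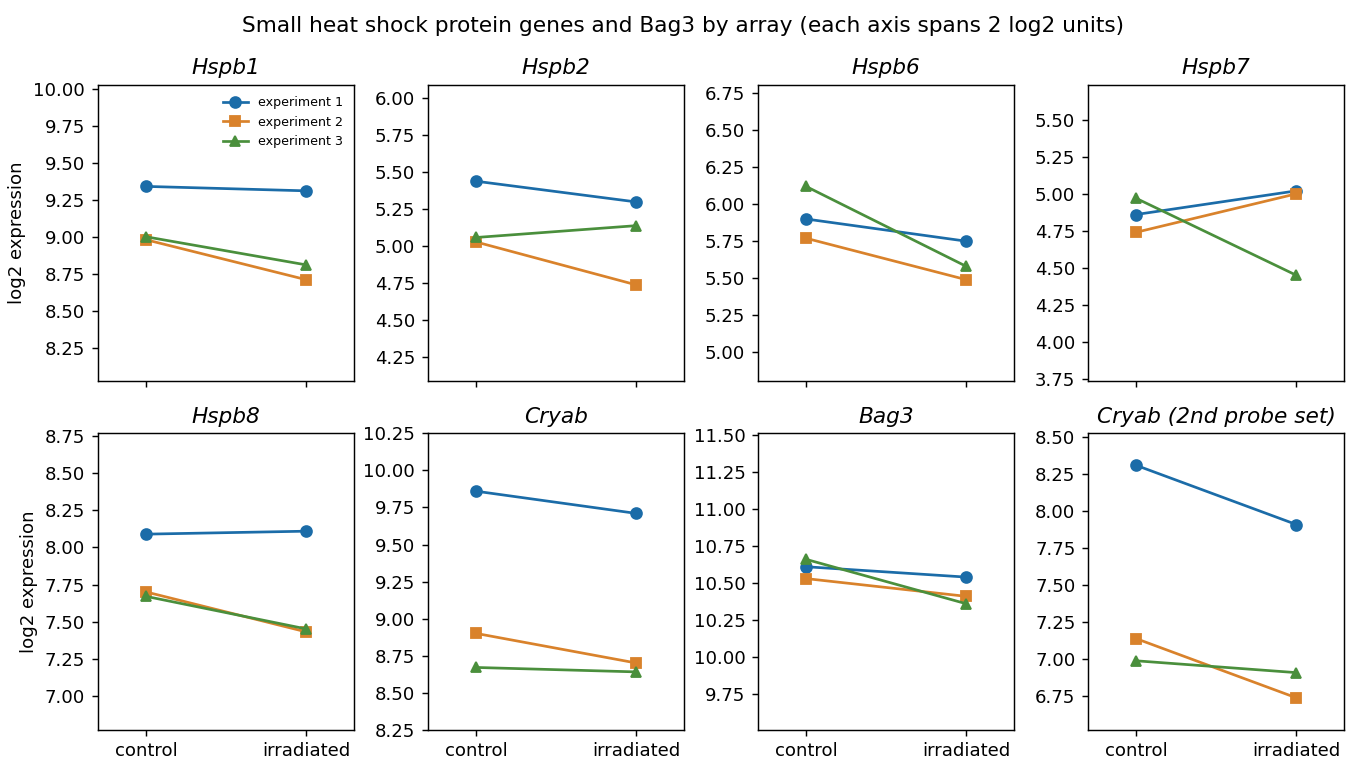
Log2 expression (y axis, 2 log2 units in each panel) in the control and irradiated array of each experiment, joined by a line, for the brightest probe set of each gene and for a second Cryab probe set. The lines of experiment 1 lie above the others for Hspb1, Hspb8 and Cryab, while Bag3 lies between 10.36 and 10.66 on all 6 arrays.

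The genes best known from muscle were dim, and their values are given with that limit. Hspb6, which encodes the muscle-relaxing chaperone HSP20, read 5.90, 5.77 and 6.12 in controls and 5.75, 5.49 and 5.58 in irradiated cultures. It was the single member probe set whose groups did not overlap, which 9.34% of all probe sets share. The log2 difference was -0.32 ± 0.11 (SE; limma adjusted p = 0.576), with a 95% interval of -0.59 to -0.05 that is not adjusted for the number of probe sets. It was the widest difference among the 14 member probe sets, at 1.25-fold lower, and came down to -0.215 without experiment 3.

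Hspb2, which binds the kinase of myotonic dystrophy, lies within the annotated span of Cryab in RefSeq's GRCm38.p6, and the pair is known to share a regulatory region. Its probe set read 5.44, 5.03 and 5.06 in controls and 5.30, 4.74 and 5.14 in irradiated cultures. Like Cryab it was highest on both arrays of experiment 1, where the lower value was 5.30 against at most 5.14 elsewhere. The irradiated minus control difference was -0.12 ± 0.11 (SE; limma adjusted p = 0.811), and experiment 3 went the other way. It was -0.03 without experiment 2 and -0.215 without experiment 3. Hspb7, the cardiovascular small heat shock protein, had 3 probe sets with control means of 4.86, 4.42 and 3.21. Their mean differences of -0.03, -0.06 and -0.05 hid pairs of both signs, from 0.34 in experiment 2 to -0.52 in experiment 3. Without experiment 3 these 3 means were higher in irradiated cultures, at 0.21, 0.11 and 0.12, so Hspb7 had no settled direction.

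No member probe set, and none of the 45037 tested (0%), had a limma adjusted p under 0.05. The members were chosen with earlier results of these data known, so the shares that follow are description only. With p left unadjusted, 2 of 14 member probe sets were under 0.05, Hspb6 and the second Cryab probe set, both lower. Of all probe sets 8.06% were under 0.05 in either direction and 4.20% were lower. Over the 14, 13 read lower on average, among them the 3 of Hspb7 at -0.06 to -0.03. Of expressed probe sets 49.8% read lower, and the share with dim ones included was not counted. In all 3 experiments 6 of the 14 were lower, where 13.8% of all probe sets were. Among the 8 expressed ones 5 were lower in all 3 experiments, against 19.0% of expressed probe sets. By experiment, 5, 8 and 8 of these 8 were lower, with medians of -0.045, -0.27 and -0.205. In these medians experiments 2 and 3 carry most of the shift, which was small in experiment 1. Cryab went otherwise: its 2 bright probe sets were lower by 0.15 and 0.40 in experiment 1 and by 0.03 and 0.08 in experiment 3.

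**Figure D2:**
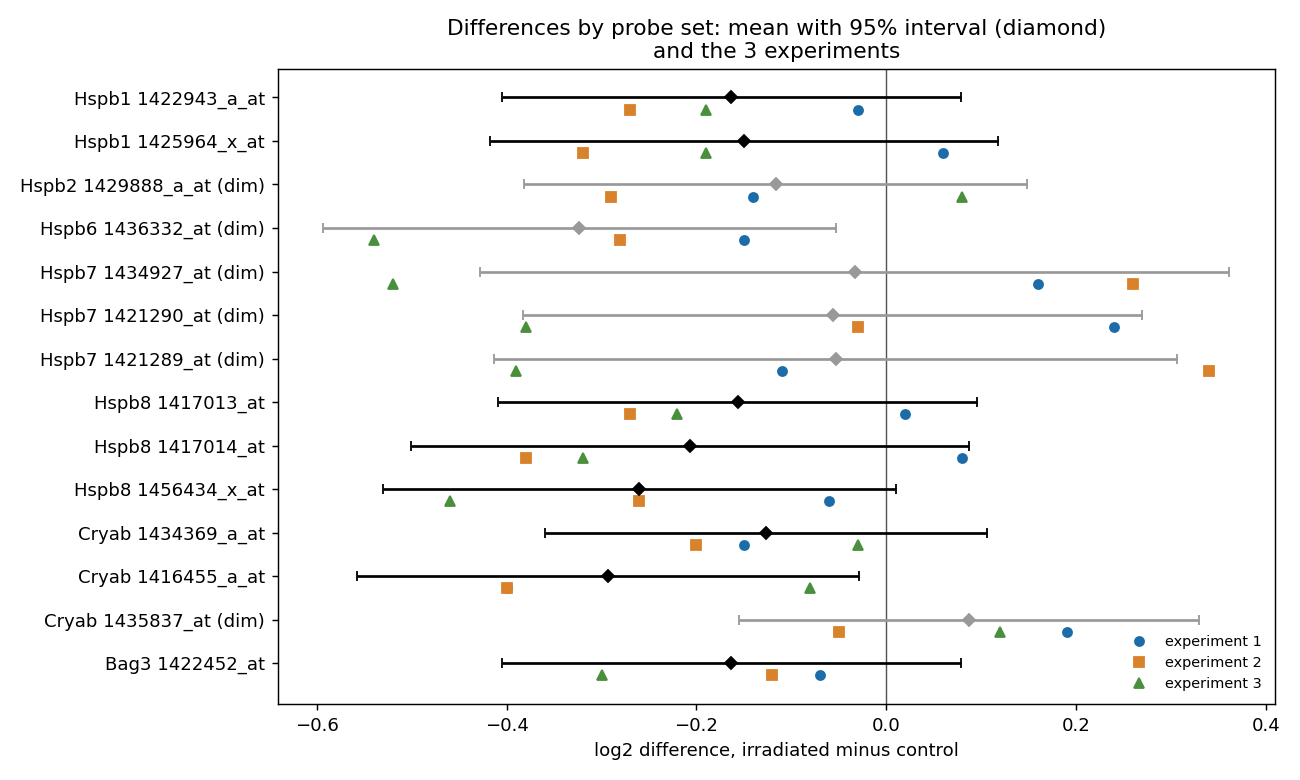
Log2 difference, irradiated minus control (x axis), for each of the 14 member probe sets (y axis); diamonds are means with the 95% interval of the limma fit, gray where the probe set was dim, and the coloured points are the 3 experiments. All means but that of the third Cryab probe set lie left of 0, and the intervals of 12 of the 14 include 0. For the second Cryab probe set the points of experiments 1 and 2 coincide at -0.40.

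The difference between experiments was wider than that between irradiated and control cells for Cryab, Hspb1 and Hspb8. Averaged over its 2 arrays, experiment 1 read 9.785 for the brightest Cryab probe set, against 8.80 in experiment 2 and 8.655 in experiment 3. This is 1.06 above the mean of the others, 2.08-fold, and the second Cryab probe set was 2.24-fold higher. Hspb8 was higher by 0.54 and Hspb1 by 0.45 in their brightest probe sets, and Bag3 by 0.085. In 7 of the 8 expressed member probe sets, all but Bag3, both arrays of experiment 1 lay above the other 4, which held for 23.2% of all expressed probe sets. Tested as differences among the 3 experiments in the same fit, the 2 bright Cryab probe sets had a limma adjusted p of 0.0702 each, and no member passed, where 0.0122% of expressed probe sets did. At an unadjusted p under 0.05, 7 of the 8 were different between experiments, against 21.1% of expressed probe sets. This test was chosen after seeing the data.

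Macrophage markers and RNA quality also differed between experiments. All 6 macrophage markers read lower in experiment 1 than in the other experiments, with log2 differences from -0.095 for the lysozyme gene Lyz2 to -0.82 for the growth factor receptor gene Csf1r and a median of -0.70. They were bright throughout, with control means of 13.03 for Csf1r and 14.21 for Lyz2. The log2 of their summed level was 15.07, 15.35 and 15.53 in the controls of experiments 1, 2 and 3, and 14.91, 15.31 and 15.32 in the irradiated cultures. The excess of 3′ over 5′ signal, a measure of RNA integrity taken on the log2 scale from array controls for Gapdh and beta-actin, was 0.190 to 0.195 in experiment 1, 0.250 to 0.275 in experiment 2 and 0.375 to 0.385 in experiment 3. Its wider step lay between experiments 2 and 3, and that of the 2 bright Cryab probe sets between 1 and 2. Hspb8 (1417014_at) fell at both steps, with experiment means of 6.82, 6.54 and 6.21. In whole cultures, fewer cells of a type and less RNA per cell cannot be told apart, and the part of these measures in the member levels was not tested.

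**Figure D3:**
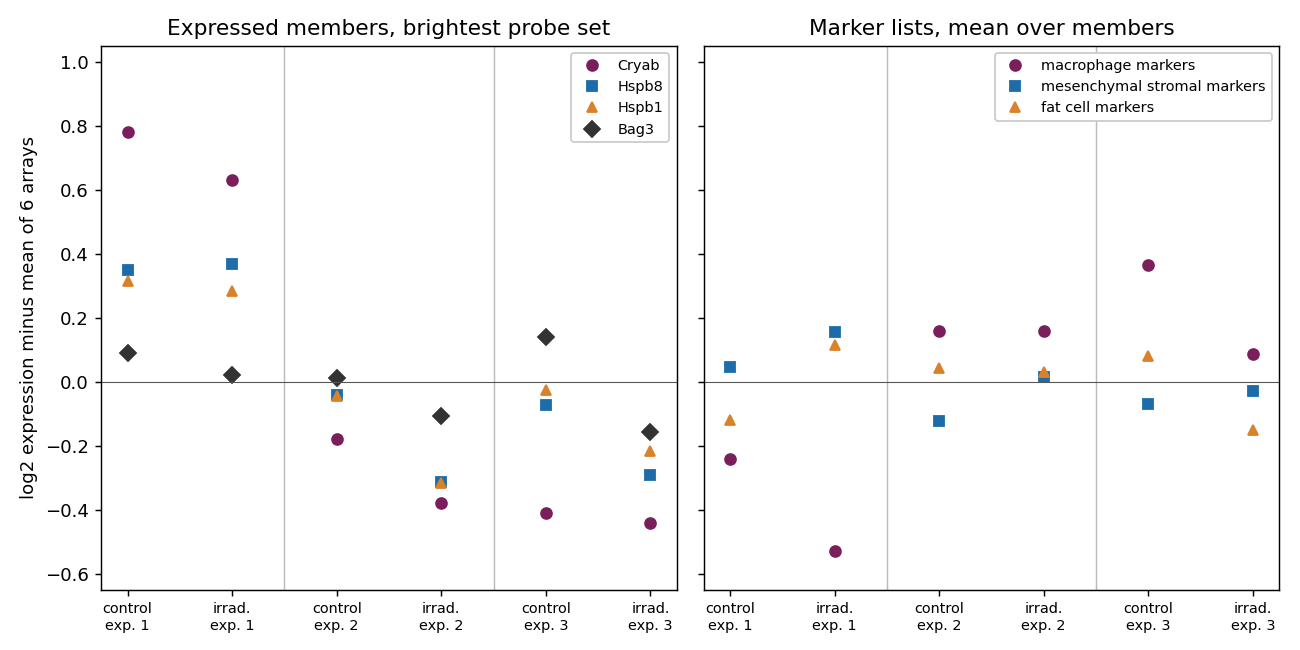
Log2 expression minus the mean of the 6 arrays (y axis) for each array (x axis), at left for the brightest probe set of the 4 expressed members and at right as means over 3 marker lists. Cryab reads 0.78 and 0.63 above its mean in experiment 1, where the macrophage markers read 0.24 and 0.53 below theirs.

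Stromal markers did not move together between experiments, with 4 of 7 higher in experiment 1 and a median of 0.13, but Nt5e, which encodes a surface nucleotidase, was higher there by 1.00. Of the 7 measured stromal markers 6 were expressed, among them Cd44 at a control mean of 10.58, Eng at 7.22 and Nt5e at 7.30, while Thy1, a defining marker of these cells, was dim at 4.11. The fat cell markers Adipoq and Fabp4 read 13.46 and 14.32 in controls. None of 12 striated muscle, 4 endothelial and 2 neural markers was expressed, with the muscle genes Myod1 at 3.79, Myog at 3.33 and Ckm at 5.07 in controls, beside the dim Hspb2, Hspb6 and Hspb7. Smooth muscle markers had a median difference of -0.14 between irradiated and control cells with 5 of 6 lower, among them Actg2 at -0.37, Tagln at -0.23, Cnn1 at -0.11 and Acta2 at -0.06. Des, which encodes the filament protein that Cryab guards in muscle, read 5.80 in controls and 5.89 in irradiated cultures. The macrophage markers read lower on average in irradiated cells too, 6 of 6, where 49.8% of expressed probe sets did. Their median was -0.10, and 3 of 6 were lower in all 3 experiments. The widest difference was that of Cd14, at -0.73 ± 0.19 (SE). The others lay between -0.11 ± 0.11 (SE) for Adgre1 and -0.05 ± 0.09 (SE) for Lyz2. Among the stromal markers Vcam1, an adhesion molecule, was higher by 0.49 ± 0.13 (SE) and Pdgfrb differed by -0.28 ± 0.10 (SE). The part of these cells in the small heat shock protein values was not tested.

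The gene whose profile over the 6 arrays was most like that of Cryab, the expressed member with the widest spread, was S100b, a calcium-binding protein gene. After each gene was centred on its own mean, it differed from Cryab by 0.06 log2 units (root mean square over 6 arrays). The next were Vnn1 at 0.10, Cthrc1 at 0.10, Galnt13 at 0.12 and F5 at 0.12. S100b read 6.76, 5.89 and 5.63 in controls and 6.79, 5.77 and 5.61 in irradiated cultures, so it too was high in experiment 1. It counts as expressed only through that experiment, as its other values were under 6. Galnt13 and F5 lay between 5.61 and 6.16 on the arrays of experiments 2 and 3. By the same measure Hspb8 ranked 147, Hspb1 ranked 315 and Bag3 ranked 3562 of 9095 expressed genes. The likeness is over 6 arrays that share 3 experiments, and the step between experiments makes up most of it.

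The other genes listed as small heat shock proteins went both ways, 2 of 5 lower and 3 higher. Hspb11, listed by its symbol and known to serve in cilia, was the single expressed one. It was higher, with pairs of 0.21, 0.44 and 0.13 and a mean of 0.26 ± 0.11 (SE; limma adjusted p = 0.614). Hspb3, Hspb9, Cryaa and Odf1 were dim, with control means of 3.45, 3.64, 5.11 and 3.81 and differences of -0.17, -0.26, 0.03 and 0.07. The other BAG genes, which encode cochaperones that help Hsp70 release its clients, were all expressed and had a median of 0.02, with 2 of 5 lower. Bag1 differed by 0.03 ± 0.10 (SE), Bag4 by 0.02 ± 0.10 (SE), Bag5 by 0.18 ± 0.09 (SE) and Bag6 by -0.05 ± 0.09 (SE). None of the 5 was at an unadjusted p under 0.05.

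The partners of Bag3 in chaperone-assisted autophagy showed no common direction apart from the inducible Hsp70 genes. Of 21 measured genes 11 were lower and 10 higher, with a median of 0.00 against 0.01 over all 18193 genes. This list was chosen with earlier results of these data known, so the shares given next do not test it. With p left unadjusted, 2 were under 0.05 and lower and none was higher, where 4.61% and 3.70% of all genes are. These 2 were the inducible Hsp70 genes, Hspa1a at -1.47 ± 0.28 (SE) and Hspa1b at -1.33 ± 0.26 (SE), with a limma adjusted p of 0.530 each. Synpo, which encodes an actin-bundling protein, was higher by 0.29 ± 0.13 (SE), and Flnc, the muscle filamin that Bag3 helps to clear, was higher by 0.20 ± 0.11 (SE). Stub1, the ubiquitin ligase of this pathway, differed by -0.13 and the autophagy receptor Sqstm1 by -0.11, -0.33 and 0.34 in the 3 experiments.

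Among heat shock factors and other inducible chaperones, 11 of 17 measured genes were lower and the median was -0.13, close to the -0.16 of the brightest probe sets of the 7 members. Of the 18 listed genes Hsf1 is not among these 17, since no probe set carried its symbol alone. With p left unadjusted, 6 of the 17 were under 0.05 and lower and 1 was higher, against the same 4.61% and 3.70%. The list was chosen with earlier results of these data known, so these shares do not test it. The list's differences reached much further than those of the small heat shock proteins, with Hspa1a and Hspa1b as above, Hspa4l at -1.03 ± 0.15 (SE) and the Hsp90 partner Chordc1 at -0.40 ± 0.11 (SE), while the Hsp40 gene Dnajb4, chosen after its values were seen, was higher by 0.31 ± 0.10 (SE). The 3 genes of this list with the widest differences were lower by the most in experiment 3, as were Bag3, Hspb6 and the Hspb7 probe sets. Hspb1, Hspb2 and Cryab were not. Hspb8 was split, with 1456434_x_at lowest in experiment 3 against its control and its other probe sets in experiment 2. Whether these genes differ in their response was not tested.

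The kinase list went both ways, 5 lower and 5 higher of 10. It holds kinases that phosphorylate small heat shock proteins, and so set their oligomer size, and others upstream of these such as Map2k6. Mapkapk2, the kinase that acts on Hspb1 downstream of p38, was lower by 0.28, 0.24 and 0.51 in the pairs, with a mean of -0.34 ± 0.10 (SE; limma adjusted p = 0.558). Mapkapk3 differed by -0.33 ± 0.16 (SE), Prkd1 by -0.22 ± 0.15 (SE) and Prkaca, a catalytic subunit of the kinase that phosphorylates Hspb6, by -0.15 ± 0.11 (SE). Map2k6, which activates p38, was dim and higher by 0.56 ± 0.13 (SE), and is named after its values were seen. Filament and cytoskeletal genes, whose proteins are clients of this family, had a median of 0.06 with 5 of 14 lower and none at an unadjusted p under 0.05. Myh9, non-muscle myosin, was higher by 0.20 ± 0.10 (SE), Lmna by 0.11 ± 0.10 (SE) and Nes by 0.08 ± 0.09 (SE), while the tubulin gene Tubb5 differed by -0.21 ± 0.10 (SE).

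**Figure D4:**
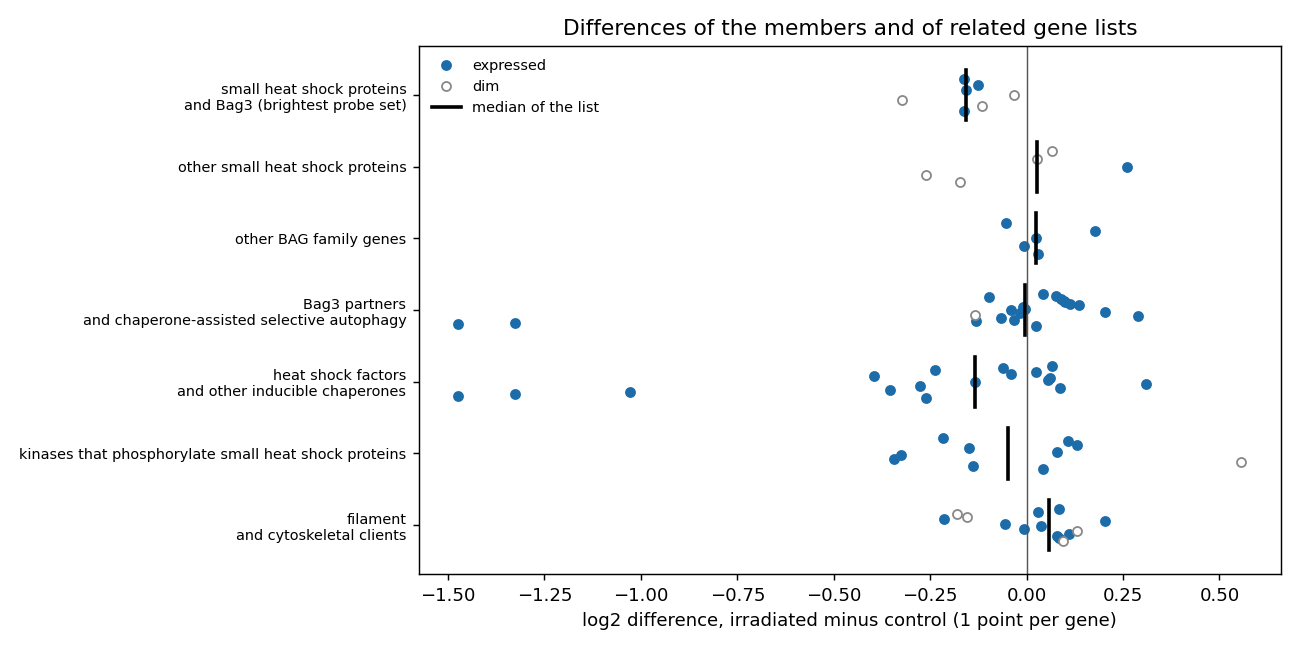
Log2 difference, irradiated minus control (x axis), for the 7 members by their brightest probe set and for 6 related gene lists (y axis), with 1 point per gene, filled where expressed, and a bar at the median of the list. All 7 members lie between -0.32 and -0.03, while Hspa1a at -1.47, Hspa1b at -1.33 and Hspa4l at -1.03 lie far to the left.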

How the data were processed

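The authors deposited log2 values, 1 per probe set, of an Affymetrix mouse array. RMA, affy and limma are named for them, per the submitters' processing notes, without versions. The labelling started from 200 ng, per the labels' protocols. Of 45101 probe sets 64 array controls were left out. The test was that of limma 3.58.1 in R 4.3.3 (lmFit, eBayes, two-sided, Benjamini-Hochberg over 45037 probe sets at 0.05), with the experiment as a block, since the design text sets each irradiated culture against its adjacent control. Deviations from the group means correlated at 0.769, 0.0973 and 0.363 within the 3 pairs, so the pairing rests on that text. Residual degrees of freedom were 2, and those of the prior 4.52. On simulated pairs of 45037 probe sets it found 73 of 100 changed 2-fold and 100 of 100 changed 4-fold, with 6 false calls. The simulation drew its variances from the prior of this fit, with normal noise and the same change in every pair. These rates therefore need not hold for the arrays themselves. The number of arrays limits the precision.

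Symbols come from the platform annotation, and 34741 of 34945 probe sets with 1 symbol were matched by gene identifier to RefSeq's GRCm38.p6. A gene is represented by its brightest probe set. Named are all member probe sets, up to 4 expressed genes per related list with the largest moderated statistic, and the 5 profiles most like that of the most variable expressed member, skipping clone-like names. Other genes are named for their role or as stated. The members and lists were chosen with earlier results of these data known. Alternatives were array weights, a robust prior with an intensity trend, centring on the median, quantile normalization, a filter on dim probe sets, the experiment as a random block or none, and 1 experiment fewer. Some genes of the lists are not reported here. Python 3.11.15 and matplotlib 3.10.9 made the figures.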

Additional observations from a re-analysis of the deposited data

Results flagged for a closer look

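Spiked-in hybridisation controls, which enter no test here, gave a higher signal on irradiated array 3 (11.73) than on its control (11.23), by 0.502 on the log2 scale, and than on the other control arrays. Without experiment 3, 10 of the 13 member probe sets that read lower still did so and the 3 of Hspb7 changed sign.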

How the results depend on the processing

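No member probe set passed the adjusted threshold under any of the 10 alternatives, and the lowest limma adjusted p among them was 0.310, for the second Cryab probe set. In this balanced design the changes of block, the robust prior and the filter on dim probe sets leave each difference as it was. They could not change a direction, and median centring shifts all probe sets alike. Of 134 member differences recomputed, with those included, 129 kept their direction. The other 5 were Hspb7 probe sets: with array weights 1434927_at differed by 0.0743 and 1421290_at by 0.0446, and with each experiment left out in turn the 3 ranged from -0.18 to 0.21, from -0.205 to 0.105 and from -0.25 to 0.115, all 3 positive without experiment 3. The count of member probe sets at an unadjusted p under 0.05, 2 with the block, was 1 without the replicate block and 1 with the random replicate block, Hspb6 in both, and ran from 0 (without experiment 2) to 2 with experiments left out. With dim probe sets left out it was 2, the second Cryab and the third Hspb8 probe set. The block changed no call past the adjusted threshold. Over all probe sets 2 passed with the random block. Related-list genes at an unadjusted p under 0.05 numbered 10 by the brightest probe set and 15 by any probe set. The lists held 5, 5, 21, 17, 10 and 14 measured genes, some of them in more than 1 list. Over all genes, by the brightest probe set, 4.61% were under 0.05 and lower and 3.70% higher. Counting any probe set gives a gene with several of them more ways to be counted. Heat shock elements were in windows of 0 member genes with 3 units and 4 with 2 units, since the shorter pattern asks for fewer letters. Differences as small as those of the members were not simulated, so how often the test misses them is unknown.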
